A study of Mus musculus with 12 samples.

Results

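Expression of 10 integrin subunit genes was followed in OTII cells primed in the presence or absence of recipient IL-6. The genes were taken by symbol from the gene counts and comprise 6 alpha subunits (Itga4, Itga6, Itga7, Itgae, Itgal and Itgav) and 4 beta subunits (Itgb1, Itgb2, Itgb3 and Itgb7). They are 10 of the 26 integrin subunits and 10 of the 40840 genes listed, and all 10 passed the filter on low counts that left 13570 genes to test. They were chosen by symbol with earlier results of these same 12 libraries in view, and which measured values weighed in the choice is not recorded. The fold changes and false discovery rates (FDR) of these 10 genes are therefore given as a description of the libraries and not as independent evidence.

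Integrins are alpha-beta heterodimers that T cells use to hold on to other cells and to matrix. A subunit reaches the surface only with a partner, so the beta subunits that accept several alphas set which pairs can form. Itgb2 pairs with Itgal to make LFA-1, which binds ICAMs during priming and on vessel walls. Itgb1 pairs with many alphas, among them Itga4 in VLA-4, a receptor for VCAM-1 and fibronectin. Itgb7 pairs with Itga4 in the gut homing receptor for MAdCAM-1 and with Itgae in the receptor for E-cadherin. Most integrins on a resting T cell are bent and inactive until talin and kindlin bind the beta tail.

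The cells were OTII TCR-transgenic CD4+ T cells, which recognize ovalbumin (OVA), transferred into WT or Il6-/- recipient mice. The deletion was in the recipients, so all 4 groups held the same kind of donor cell. All recipients were sensitized intranasally with house dust mite (HDM) extract containing LPS, together with OVA, and none was left unsensitized. OTII cells were sorted from the mediastinal lymph nodes (mLNs) on Day 3 or Day 5 as the labels count the days, starting at day 1, and 3 libraries were made for each genotype and day. The labels name the tissue as blood, whereas the series text and the methods name the mLN. Neither the animals' ages nor whether the 3 replicates of a group came from separate or pooled animals was stated, so p-values measure only the spread between these libraries, which may be technical.

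The libraries held 16125947 to 26111657 reads on genes (median 19727354). That was 60.2 to 62.2% of all entries counted on Day 3 and 52.5 to 56.7% on Day 5. Summed levels of 6 CD4 T cell markers lay between 4770 and 8400 CPM, read counts scaled to a common library total. The B cell list summed to 6.55 to 16.6 CPM and the platelet list to at most 2.38 CPM, with the platelet gene Ppbp at 0 in every library. The myeloid and dendritic cell list was higher, at 12.1 to 92.4 CPM, and varied widely within groups. Its gene S100a8 had 2 to 571 reads a library in WT recipients on Day 3. The part of this list in the integrin results was not tested. Il6 itself had 0 to 5 counts per library in donor cells whose own Il6 gene was intact, and so it does not check the recipient label. In bulk RNA, fewer cells of a type and less RNA per cell cannot be told apart.

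CPM values use library sizes normalized by trimmed mean of M values (TMM), and different genes are compared only as CPM per kb of merged exon. Merged exon joins every annotated exon of a gene and can be longer than the transcripts expressed here, whose lengths were not measured. The order, shares and ratios of different genes therefore depend on these lengths. In OTII cells primed in WT recipients for 3 days, Itgb7 was the highest of the 10 at 256 ± 13.3 CPM per kb (SD, n = 3). Itgb2 followed at 203 ± 1.17 CPM per kb and Itgal at 139 ± 2.22 CPM per kb. Itgb1 lay far below at 20.8 ± 4.08 CPM per kb. Itga4 stood at 6.43 ± 0.779, Itgb3 at 4.30 ± 0.784 and Itga6 at 1.68 ± 0.0602 CPM per kb. Itgav, Itga7 and Itgae closed the order at 0.697, 0.493 and 0.168 CPM per kb. No 2 neighbours in this order overlapped in their libraries.

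The order changed with genotype and day at both ends. On Day 3 in Il6-/- recipients Itgb2 was first at 185 ± 5.53 CPM per kb, and Itgb7 at 137 ± 30.2 CPM per kb could not be separated from Itgal at 132 ± 8.02 CPM per kb. At the bottom, Itgae at 0.0883 and Itga7 at 0.0597 CPM per kb overlapped. On Day 5, Itgb2 was first in both genotypes, at 276 ± 12.8 CPM per kb in WT and 270 ± 11.1 CPM per kb in Il6-/- recipients, with Itgb7 second at 214 ± 19.7 and 199 ± 20.8 CPM per kb. Overlapping neighbours on Day 5 were Itga6 and Itgb3 in both genotypes, and Itgav and Itga7 in Il6-/- recipients.

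**Figure D1:**
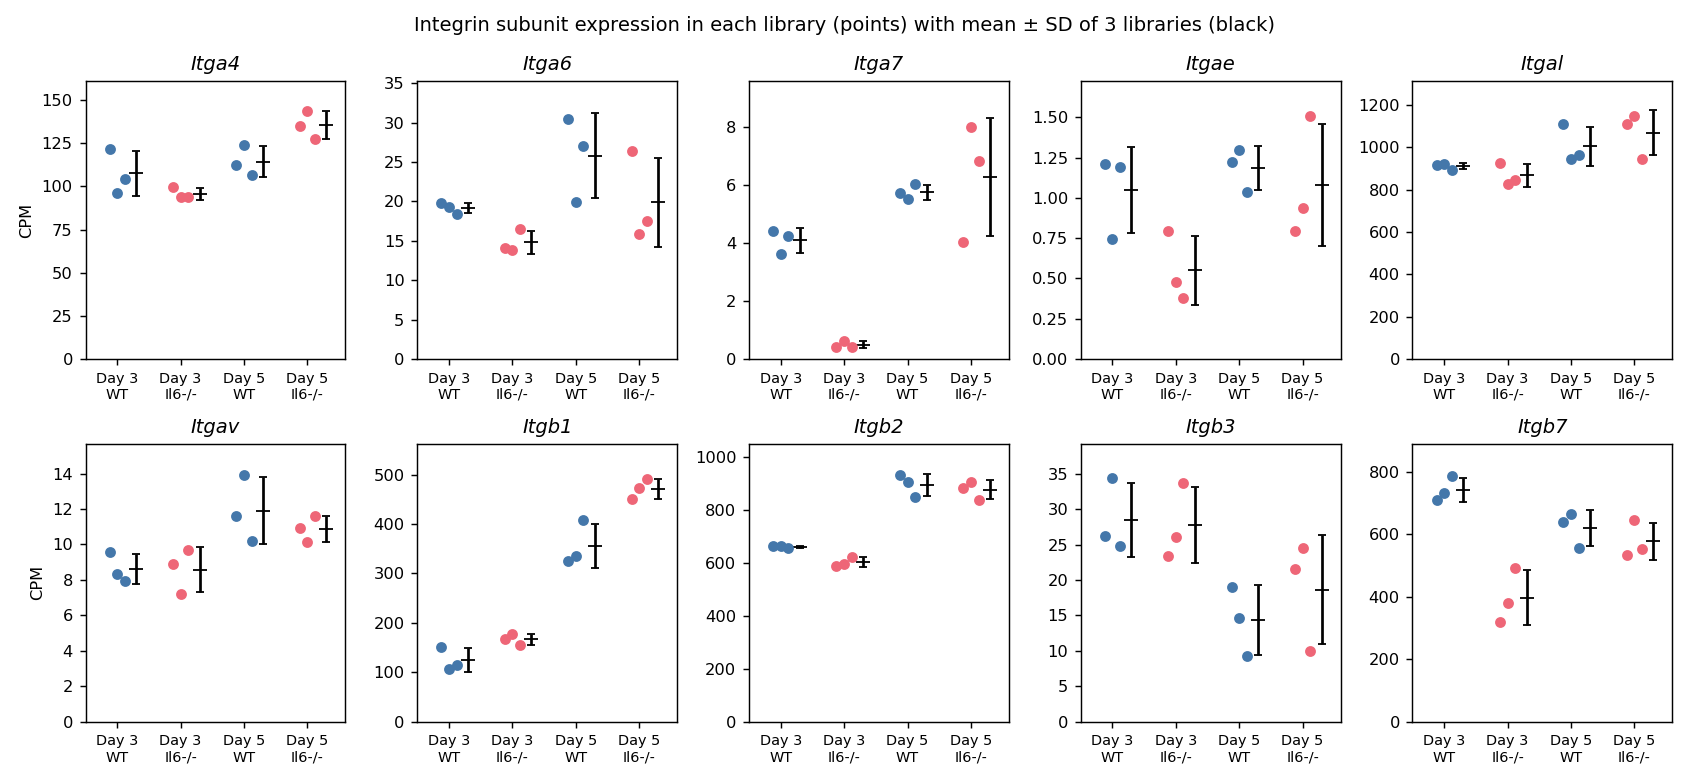
Level of each integrin subunit gene in every library, in CPM on a linear axis that starts at 0. Points are single libraries (blue, WT recipients; red, Il6-/- recipients) and the black bars give the mean ± SD of 3 libraries. Itga7 lies between 0.422 and 0.637 CPM in the 3 libraries from Il6-/- recipients on Day 3 and between 3.61 and 7.97 CPM in the other 9.

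The first question was how the subunits differed by recipient genotype on Day 3. Of the 10 genes, 1 was higher and 2 were lower in Il6-/- recipients at an FDR under 0.05 in edgeR's quasi-likelihood test, against 13.7% of all genes tested in either direction, 7.52% higher and 6.19% lower. Only Itga7 also changed at least 2-fold, which 2.74% of all genes did. In 5 of the 10 genes the 3 libraries of one genotype did not overlap those of the other, which held for 36.2% of all genes. The median log2 fold change of the 10 genes was -0.15, and that of all genes was 0.01.

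Itga7 encodes an alpha subunit that pairs with Itgb1 and binds laminin, and is best known from muscle. The gene spans chr10:128769621-128794169 on the plus strand of GRCm39 and shares no exon bases with another annotated gene. In WT recipients on Day 3 its level was 4.41, 3.61 and 4.23 CPM in replicates 1 to 3, from 73 to 113 reads a library. From Il6-/- recipients it was 0.422, 0.637 and 0.427 CPM, from 8 to 12 reads. Every library from Il6-/- recipients lay below every library from WT recipients, and the reads behind the lower values were few. The level fell by 3.03 (SE 0.32) on the log2 scale, 8.19-fold, with an FDR of 3.5e-05 in edgeR's quasi-likelihood test. When each of the 12 libraries was left out in turn, the log2 fold change ranged from -3.25 to -2.93 and the FDR reached at most 0.00052.

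Itgb7 lies at chr15:102124429-102140379 on the minus strand of GRCm39. Its level on Day 3 was 710.8, 731.2 and 785.6 CPM in WT recipients. The Il6-/- libraries measured 319.5, 381.5 and 492.4 CPM. The groups did not overlap, and the libraries from Il6-/- recipients were the more widely spread. The level fell by 0.90 (SE 0.13) on the log2 scale, 1.87-fold (edgeR FDR 0.00037), and leaving out 1 library at a time gave -1.08 to -0.76.

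Itgb1, at chr8:129411876-129460618 on the plus strand, moved the other way. It measured 151.9, 105.8 and 115.5 CPM in WT recipients on Day 3. It measured 168.2, 177.7 and 154.4 CPM in Il6-/- recipients. The highest WT library lay just below the lowest Il6-/- library. The log2 fold change was 0.42 (SE 0.12) with an edgeR FDR of 0.03. This call was lost when replicate 2 or 3 from WT recipients, or replicate 1 or 2 from Il6-/- recipients, was left out, with a log2 fold change of 0.32 to 0.42 and an FDR of 0.086 to 0.15 in those 4 fits.

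The other 7 subunits did not pass the test on Day 3. Itgb2, the shared beta subunit of the leukocyte integrins, measured 661, 661 and 655 CPM in WT and 589, 593 and 622 CPM in Il6-/- recipients. These groups did not overlap, but the log2 fold change was only -0.13 (SE 0.063, edgeR FDR 0.20). Its partner Itgal had a log2 fold change of -0.07 (SE 0.084) from 828 to 928 CPM in all 6 libraries. Itga6, a laminin receptor subunit, was at 19.7, 19.3 and 18.4 CPM in WT and 14.1, 13.8 and 16.5 CPM in Il6-/- recipients, again without overlap, with a log2 fold change of -0.37 (SE 0.18, FDR 0.21). A fit restricted to the 6 libraries of Day 3 placed Itga6 and Itgb2 past the threshold, with FDRs of 0.028 and 0.042.

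Itga4 and Itgav are the alpha subunits of receptors for VCAM-1 and vitronectin, respectively. Itga4 measured 121.9, 96.4 and 104.4 CPM in WT and 99.4, 93.7 and 93.8 CPM in Il6-/- recipients, so the groups overlapped, and the log2 fold change was -0.17 (SE 0.092). Counting reads on Itga4 is less certain than on the other genes, because 20.8% of its merged exon length is shared with Cerkl, which had 64 to 178 counts per library against 1766 to 3124 for Itga4. Itgav and Itgb3, which together bind vitronectin and related ligands, had log2 fold changes of 0.00 (SE 0.17) and -0.04 (SE 0.28). Itgae, known from intraepithelial and tissue-resident T cells, was near the limit of counting with 8 to 31 reads in the Day 3 libraries, and its log2 fold change of -0.93 had an SE of 0.46.

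**Figure D2:**
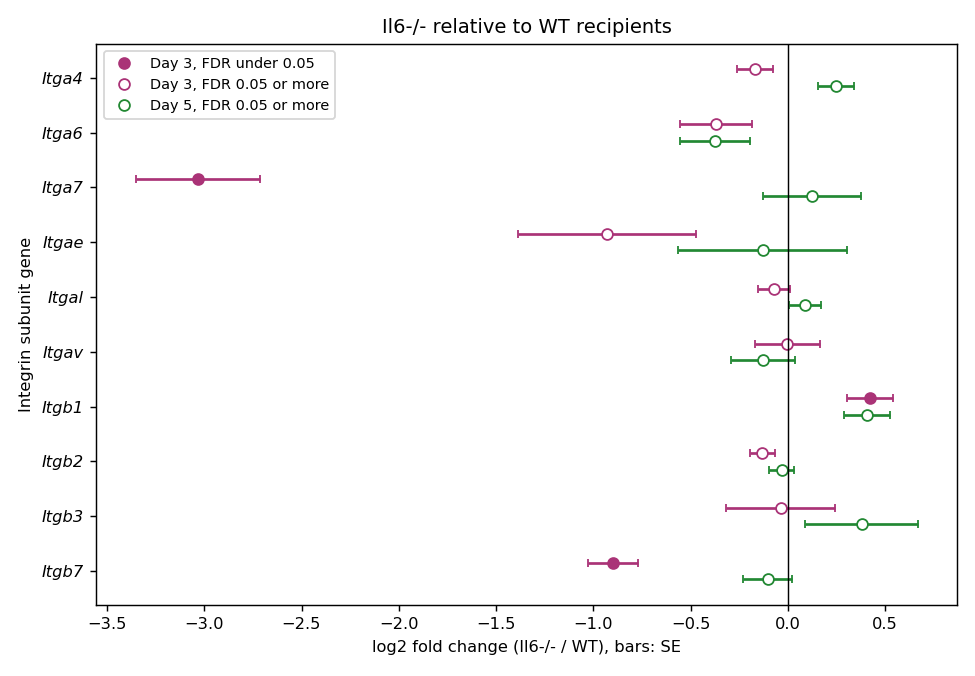
Log2 fold change of each subunit in OTII cells from Il6-/- relative to WT recipients, on Day 3 (purple) and Day 5 (green). Bars give the SE from the edgeR fit over 12 libraries, and filled points have an FDR under 0.05. On Day 3 Itga7, Itgb7 and Itgb1 are filled, at -3.03, -0.90 and 0.42, and on Day 5 no point is.

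Markers of other cells also moved on Day 3. Summed over 6 genes, the B cell list was at 6.55 to 8.69 CPM in WT and 13.7 to 14.6 CPM in Il6-/- recipients, with 1 gene called higher and 1 lower among 4 tested. The list for CD8 T cells and NK cells summed to 62.4 to 74.4 CPM and 83.6 to 114 CPM, with 1 of 4 tested genes called higher. The endothelium and stroma list summed to 115 to 119 CPM and 83.2 to 90.3 CPM. Nearly all of each sum was Pecam1, which T cells can also express, averaging 116.5 and 85.5 CPM in the same order. No other gene of that list averaged above 0.36 CPM on Day 3. Pecam1 was the 1 gene tested and was called lower, so the sums do not show a change in endothelial or stromal content. Of the 4 regulatory T cell genes, which summed to 222 to 251 CPM and 215 to 291 CPM, Il2ra, also a mark of activated T cells, was called higher and Ikzf2 lower. The lung epithelium list summed to 0.494 to 1.52 CPM in WT and 0.475 to 11.3 CPM in Il6-/- recipients, where 1 of 4 tested genes, Sftpc, was called higher from 1, 176 and 9 reads. Without the library that held the 176 reads, replicate 2, Itga7 and Itgb7 were still called lower, and Itgb1 was not called. The CD4 T cell list summed to 4880 to 5420 CPM in WT and 4770 to 4830 CPM in Il6-/- recipients, with 0 of 6 genes called and 1 at an unadjusted p under 0.05. The part of these differences in the integrin results was not tested.

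On Day 5 none of the 10 subunits differed between genotypes at an FDR under 0.05 in the edgeR test, against 4.61% of all genes tested, 1.27% higher and 3.35% lower, and 2 had an unadjusted p under 0.05. With a 2-fold minimum the count was also 0, against 1.14% of all genes. The 2 were Itgb1 and Itga4, the subunits of VLA-4, and they were also the 2 of 10 genes whose libraries did not overlap, which held for 19.6% of all genes. Itgb1 measured 325.7, 336.0 and 407.1 CPM in WT and 450.6, 473.6 and 490.6 CPM in Il6-/- recipients. Every library from Il6-/- recipients was above every library from WT recipients, with a log2 fold change of 0.40 (SE 0.12, FDR 0.067). Itga4 measured 112.3, 124.1 and 106.8 CPM in WT and 134.9, 143.9 and 127.8 CPM in Il6-/- recipients, a log2 fold change of 0.24 (SE 0.092, FDR 0.15). Same-numbered Day 5 libraries deviated together, and with the replicate number as a block both genes passed the threshold, Itgb1 with an FDR of 0.0092 and Itga4 with an FDR of 0.034. By the other tools, DESeq2 called 1 of the 10 genes and limma-voom called 0.

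Marker lists also differed on Day 5. The B cell list summed to 8.99 to 11.5 CPM in WT and 12.3 to 16.6 CPM in Il6-/- recipients, with 0 of 4 tested genes called and 2 at an unadjusted p under 0.05. The platelet list summed to 0.713 to 1.14 CPM and 1.87 to 2.38 CPM, with 0 of 2 tested genes called and 0 at an unadjusted p under 0.05. The CD4 T cell list summed to 8000 to 8400 CPM and 7120 to 7870 CPM, with 1 of 6 genes called lower. For CD8 T cells and NK cells the sums were 90.4 to 110 CPM and 85.8 to 101 CPM. Of 4 tested genes there, 1 was called lower, Klrb1c, by 0.60 on the log2 scale. The regulatory T cell list summed to 261 to 304 CPM and 216 to 283 CPM, with 0 of 4 genes called and 2 at an unadjusted p under 0.05. The part of these differences in the Itgb1 and Itga4 values was not tested.

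The 2 genes that were lower on Day 3 showed no such gap on Day 5. Itga7 measured 5.70, 5.51 and 6.02 CPM in WT and 4.02, 7.97 and 6.82 CPM in Il6-/- recipients, so that libraries from Il6-/- recipients lay on both sides of the WT range. Its log2 fold change was 0.12 (SE 0.25). Itgb7 measured 639.9, 665.4 and 556.3 CPM in WT and 532.6, 646.0 and 554.0 CPM in Il6-/- recipients, which overlapped, with a log2 fold change of -0.10 (SE 0.13). The remaining 6 subunits had log2 fold changes between -0.37 for Itga6 and 0.38 for Itgb3, with FDRs of 0.27 or more.

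The difference between the genotype effects of the 2 days was tested as an interaction. It passed an FDR under 0.05 for 2 of the 10 subunits, both with a lower value on Day 3, against 4.92% of all genes in either direction, 3.12% higher and 1.80% in that direction. With a 2-fold minimum 1 remained, Itga7, against 1.38% of all genes. For Itga7 the Day 3 effect was 3.16 (SE 0.41) below the Day 5 effect on the log2 scale (edgeR FDR 0.0015). For Itgb7 it was 0.80 (SE 0.18) below (FDR 0.023), a call that was lost in 4 fits leaving out 1 Day 3 library, with an FDR of up to 0.069. Those libraries were replicates 2 and 3 from WT and replicates 1 and 2 from Il6-/- recipients, and the log2 value over all fits leaving out a library ranged from -0.98 to -0.66. Itga4 was 0.41 (SE 0.13) below with an FDR of 0.081, and 0.016 with the replicate block. Itgb1 had an interaction of 0.02 (SE 0.17), and so its genotype differences on the 2 days were not shown to differ.

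Because Itgb1 and Itgb7 both pair with Itga4, their levels were set against each other in each library. The ratio of Itgb7 to Itgb1, each as CPM per kb, was 9.63, 14.2 and 14 in WT recipients on Day 3. It was 3.91, 4.42 and 6.56 in Il6-/- recipients on Day 3. On Day 5 it was 4.04, 4.07 and 2.81 in WT and 2.43, 2.81 and 2.32 in Il6-/- recipients. The Day 3 genotypes were clear of each other. That had to be so, because both genes were already without overlap on Day 3 and in opposite directions, so the ratio adds no further separation. The Day 3 Il6-/- libraries reached down to the Day 5 WT range. On Day 5 the lowest WT library and the highest Il6-/- library were both at 2.81.

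As shares of the 4 beta subunits, by CPM per kb, Itgb7 made up 52.8 ± 1.71% and Itgb2 42.0 ± 1.09% in WT recipients on Day 3 (SD, n = 3). In Il6-/- recipients on Day 3 Itgb7 made up 38.4 ± 4.63% and Itgb2 52.5 ± 3.64%. Day 5 gave 38.7 ± 1.91% and 36.1 ± 1.88% for Itgb7 in WT and Il6-/- recipients. The mean Day 3 Il6-/- share of Itgb7 therefore lay within the spread of the Day 5 WT share. Itgb1 went from 4.31 ± 0.884% to 10.9 ± 1.88% between the days in WT recipients, and from 7.95 ± 1.18% to 14.4 ± 0.966% in Il6-/- recipients. Among the 6 alpha subunits, Itgal held 93.3 to 94.4% of the summed CPM per kb in every group mean. These shares are descriptions of RNA, depend on the merged exon lengths and carry no test.

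**Figure D3:**
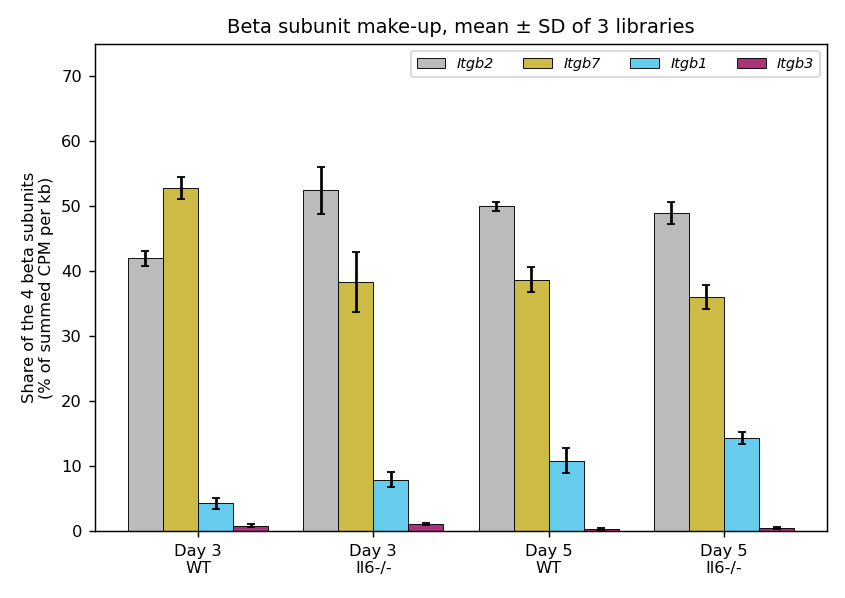
Share of each of the 4 beta subunit genes in their summed CPM per kb of exon, by recipient genotype and day. Bars give the mean and error bars the SD of 3 libraries. Itgb7 makes up 52.8% in WT recipients on Day 3 and 36.1 to 38.7% in the other 3 groups, and Itgb1 goes from 4.31% to 14.4%.

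Ratios within the known pairs differed widely in scale. Itgb2 exceeded its partner Itgal by 1.41 to 1.80 times per kb in the 4 groups, on that scale the most even pair of those examined. Itgb7 exceeded Itga4 by 40 times in WT and 23.6 times in Il6-/- recipients on Day 3, and by 31.2 and 24.5 times on Day 5. Itgb1 exceeded Itga4 by 3.22 and 4.88 times on Day 3 and by 8.70 and 9.76 times on Day 5, in WT and Il6-/- recipients in turn. The size of these ratios rests largely on merged exon lengths of 16.732 kb for Itga4, 2.902 kb for Itgb7 and 5.970 kb for Itgb1. Before division by length, the Day 3 WT means were 107.5 CPM for Itga4, 742.5 CPM for Itgb7 and 124.4 CPM for Itgb1. Itgb1 exceeded Itga7 by 41.9 times in WT and 476 times in Il6-/- recipients on Day 3, and by 85.8 and 109 times on Day 5. Itgb7 stood 1130 to 1610 times above Itgae in the 4 groups.

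Between Day 3 and Day 5 most of the transcriptome moved. In WT recipients 3 of the 10 subunits were higher and 1 was lower on Day 5 at an FDR under 0.05, against 56.7% of all genes tested, 29.5% higher and 27.1% lower. In Il6-/- recipients 6 of the 10 were higher and 0 were lower, against 60.5% of all genes, 30.4% higher and 30.1% lower. With a 2-fold minimum the counts were 1 in WT and 2 in Il6-/- recipients, against 22.1% and 25.9% of all genes. The libraries of the 2 days did not overlap for 8 of the 10 genes in each genotype, as for 63.3% of all genes in WT and 65.8% in Il6-/- recipients. The median log2 fold change was 0.30 in WT and 0.52 in Il6-/- recipients, and 0.09 for all genes in both. The CD4 T cell marker list, called higher in 6 of 6 genes in both genotypes, summed to 4770 to 5420 CPM on Day 3 and 7120 to 8400 CPM on Day 5.

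Other marker lists moved between the days as well. The list for CD8 T cells and NK cells went from 62.4 to 74.4 CPM to 90.4 to 110 CPM in WT recipients, with 2 genes higher and 1 lower of 4 tested, and from 83.6 to 114 CPM to 85.8 to 101 CPM in Il6-/- recipients, with 1 higher and 1 lower. For B cells 2 of 4 tested genes were called higher in each genotype. The endothelium and stroma list went from 115 to 119 CPM to 137 to 148 CPM in WT and from 83.2 to 90.3 CPM to 125 to 154 CPM in Il6-/- recipients, with the 1 tested gene, Pecam1, which T cells can also express, called higher in both. The lung epithelium list went from at most 1.52 CPM to 2.55 to 20.7 CPM in WT recipients, with 2 of 4 tested genes called higher, and from 0.475 to 11.3 CPM to 5.19 to 9.58 CPM in Il6-/- recipients, with 1 called higher. Of the regulatory T cell list, 2 genes were higher and 2 lower of 4 in WT, and 2 higher and 1 lower in Il6-/- recipients. Myeloid and dendritic cell genes were called in 1 of 6 in WT and 3 of 6 in Il6-/- recipients, and platelet genes in 0 of 2, with 1 of 2 at an unadjusted p under 0.05 in Il6-/- recipients. The part of these lists in the integrin differences was not tested.

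Itgb1 and Itgb2, the beta subunits of VLA-4 and LFA-1, were higher on Day 5 in both genotypes. Itgb1 went from 105.8 to 151.9 CPM on Day 3 to 325.7 to 407.1 CPM on Day 5 in WT recipients, a log2 fold change of 1.52 (SE 0.12, edgeR FDR 1.1e-07). The log2 fold change in Il6-/- recipients was 1.5 (SE 0.12, FDR 8.6e-08), from at most 177.7 CPM to at least 450.6 CPM. Itgb2 measured 655 to 661 CPM on Day 3 and 929, 905 and 848 CPM on Day 5 in WT recipients. Its log2 fold changes were 0.44 (SE 0.063, FDR 2.9e-05) in WT and 0.54 (SE 0.063, FDR 3.1e-06) in Il6-/- recipients. In both genes the days were far apart compared with the spread of the 3 libraries.

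Itga7 and Itgb7 changed with the day in Il6-/- recipients, where their Day 3 levels were low. Itga7 rose there by 3.65 (SE 0.32) on the log2 scale, 12.5-fold, with an FDR of 1.6e-07 in the edgeR test. In WT recipients its log2 fold change was 0.49 (SE 0.26, FDR 0.11), although the days did not overlap. Itgb7 rose by 0.54 (SE 0.13, FDR 0.0019) in Il6-/- recipients and had a log2 fold change of -0.26 (SE 0.13, FDR 0.093) in WT recipients, which passed the threshold in 6 of 18 alternatives. The test of the difference between genotypes in this day effect is the interaction given above.

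Itga4 and Itgal also passed the test in Il6-/- recipients. Itga4 had a log2 fold change of 0.50 (SE 0.093, edgeR FDR 0.00024) there and 0.09 (SE 0.092) in WT recipients. Itgal had 0.30 (SE 0.084, FDR 0.0062) there and 0.14 (SE 0.084) in WT recipients. For Itgal the interaction was -0.16 (SE 0.12, FDR 0.50), so the 2 genotypes were not shown to differ. The interaction of Itga4 did not pass in the main edgeR fit either (FDR 0.081), though it did with the replicate block (FDR 0.016).

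Itgav and Itgb3, the pair that forms the vitronectin receptor, moved in opposite directions in WT recipients. Itgav measured 9.56, 8.31 and 7.93 CPM on Day 3 and 11.6, 13.9 and 10.2 CPM on Day 5, a log2 fold change of 0.47 (SE 0.17, edgeR FDR 0.026). This call was lost without WT replicate 2 or 3 of Day 3 or WT replicate 2 of Day 5, and with no filter on low counts, with an FDR of up to 0.13. Itgb3 measured 26.2, 34.4 and 24.8 CPM on Day 3 and 19.0, 14.7 and 9.26 CPM on Day 5, where it fell by 0.99 (SE 0.29, FDR 0.0083). In Il6-/- recipients Itgb3 measured 23.3, 26.1 and 33.7 CPM on Day 3 and 21.5, 24.5 and 9.99 CPM on Day 5. These days overlapped, and the log2 fold change of -0.58 (SE 0.28) had an FDR of 0.092. Itgav had a log2 fold change of 0.34 (SE 0.17, FDR 0.091) in Il6-/- recipients, without overlap of the days. The edgeR interaction FDRs were 0.82 for Itgav and 0.61 for Itgb3, so the 2 genotypes were not shown to differ. The platelet list, whose cells carry much Itgb3 protein, summed to 0.234 to 2.38 CPM over all libraries.

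**Figure D4:**
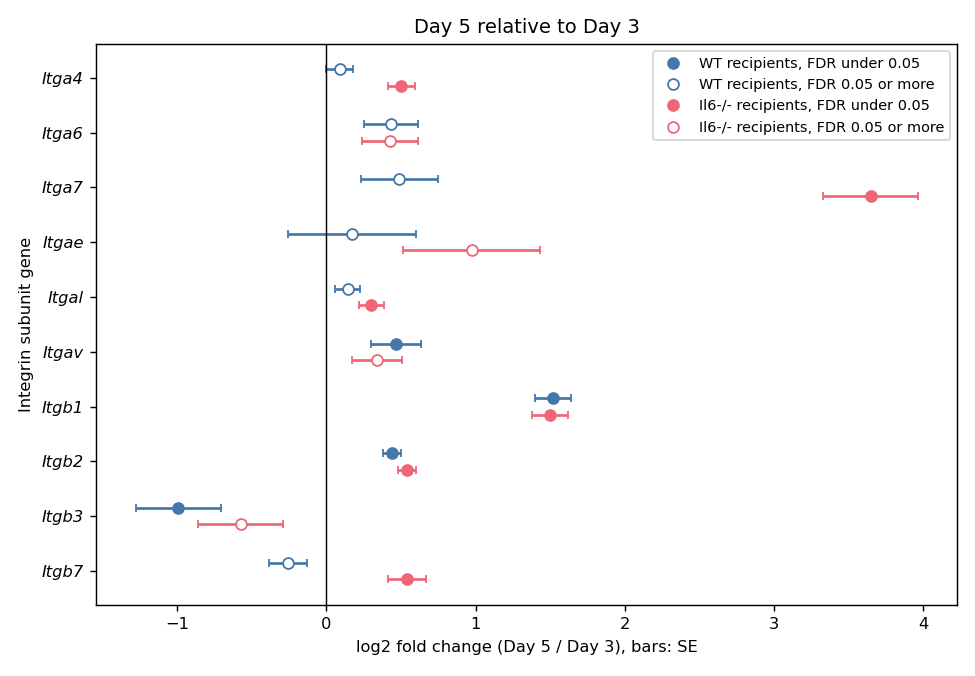
Log2 fold change of each subunit on Day 5 relative to Day 3, in WT (blue) and Il6-/- (red) recipients. Bars give the SE from the edgeR fit and filled points have an FDR under 0.05. Itgb1 sits at 1.52 and 1.5 in the 2 genotypes, whereas Itga7 sits at 0.49 and 3.65.

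The other 16 integrin subunits were low, and 9 of them (Itga2, Itga2b, Itga3, Itga5, Itga9, Itga10, Itgam, Itgb4 and Itgb8) passed the filter on low counts. The highest value of any of the 16 in a library was 7.76 CPM, for Itgam. By genotype 0 of the 9 were called on either day in the edgeR test, against 13.7% of all genes on Day 3 and 4.61% on Day 5, with 3 on Day 3 and 1 on Day 5 at an unadjusted p under 0.05. Over the alternatives tried, at most 1 was called on Day 3 and 0 on Day 5.

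By day, 2 were higher and 2 lower in WT recipients and 3 were higher in Il6-/- recipients, against 56.7% and 60.5% of all genes called. Itga9 and Itgb8 were higher on Day 5 in both genotypes. Itga9, whose product pairs with Itgb1, measured 0.234, 0.643 and 0.326 CPM on Day 3 and 3.72, 2.65 and 2.92 CPM on Day 5 in WT recipients, a log2 fold change of 2.95 (SE 0.51, edgeR FDR 0.00016). The value in Il6-/- recipients was 1.89 (SE 0.47, FDR 0.0026). The Day 3 levels of Itga9 rested on 6 to 13 reads a library in WT and 10 to 28 in Il6-/- recipients. Itgb8, which pairs with Itgav and is known for activating latent TGF-beta, had 0 reads in all 3 WT libraries of Day 3 and 6 to 33 reads in each Day 5 library. Set against a floor of 3 counts per library, it was at least 3.98-fold higher on Day 5 in WT recipients (FDR 0.0013). It had 2, 0 and 1 reads on Day 3 and 10, 6 and 33 on Day 5 in Il6-/- recipients (FDR 0.0028). Itgb4 was called higher on Day 5 in Il6-/- recipients from 18 reads or fewer a library (FDR 0.027), a call lost without Day 3 replicate 2 or 3 or Day 5 replicate 1 or 2 of that genotype (FDR 0.06 to 0.091), and 14.9% of its exon length is shared with Galk1. Itga5, the fibronectin receptor subunit, and Itgam, a myeloid and activated lymphocyte subunit, were lower on Day 5 in WT recipients, by log2 fold changes of -0.93 (SE 0.31, FDR 0.02) and -0.86 (SE 0.35, FDR 0.047). The Itga5 call was lost without WT replicate 2 or 3 of Day 3 or WT replicate 3 of Day 5 (FDR 0.068 to 0.072). The Itgam call was lost without WT replicate 1 or 2 of either day or Il6-/- replicate 1 of Day 3 (FDR 0.053 to 0.18).

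Genes that switch integrins between inactive and active states were examined next, as a list of 23 of which 20 were tested. On Day 3, 0 of the 20 were higher and 6 were lower in Il6-/- recipients (edgeR FDR under 0.05), against 7.52% of all genes higher and 6.19% lower, and the median log2 fold change was -0.15 against 0.01 for all genes. The count was 4 to 8 over the alternatives other than a 2-fold minimum, which left 1. Rasa3, a GTPase-activating protein that restrains Rap1 and thereby integrin activation, measured 171.7, 157.6 and 158.0 CPM in WT and 71.3, 72.7 and 93.6 CPM in Il6-/- recipients. It fell by 1.04 (SE 0.14, FDR 0.00025) without overlap. Skap1, an adaptor that acts with Rap1 and LFA-1 after T-cell receptor signals, measured 437.3, 472.9 and 471.8 CPM in WT and 304.9, 352.6 and 345.2 CPM in Il6-/- recipients, and fell by 0.46 (SE 0.071, FDR 0.00064). So the genes that were lower included both a restraint and a helper of activation.

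The other 4 genes lower on Day 3 were Flna, Fyb, Stk4 and Cyth1, named after their values were seen. Flna encodes filamin A, which competes with talin for beta tails, and fell by 0.62 (SE 0.17, edgeR FDR 0.021). Fyb, Stk4 and Cyth1, which encode an adaptor, a kinase and an exchange factor of the same pathway to LFA-1, fell by 0.28, 0.41 and 0.38 on the log2 scale, with FDRs of 0.0069, 0.0067 and 0.0089. The Flna call was lost without WT replicate 1 or 3 or Il6-/- replicate 1 or 2 of Day 3 (FDR 0.05 to 0.094), and the Cyth1 call without Il6-/- replicate 2 of Day 3 (FDR 0.051).

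On Day 5 the 1 activation gene called of 20, against 4.61% of all genes, was Rap1b, the small GTPase upstream of talin recruitment. It measured 369.6, 425.3 and 202.5 CPM in WT and 170.2, 159.4 and 168.9 CPM in Il6-/- recipients and fell by 1.00 (SE 0.21, edgeR FDR 0.013). WT replicate 3 was the lowest of its group and lay nearest the libraries from Il6-/- recipients. The call was lost without Day 5 WT replicate 1 or 2 or Il6-/- replicate 2 or 3, with log2 fold changes of -1.01 to -0.78 and FDRs of 0.052 to 0.07. With the replicate block 3 of the 20 genes were called on Day 5. Between days, 8 of the 20 genes were higher and 6 lower in WT recipients, and 11 were higher and 4 lower in Il6-/- recipients, where 56.7% and 60.5% of all genes were called. Apbb1ip, a Rap1 effector that brings in talin, rose by 0.58 on the log2 scale in both genotypes, and Sharpin, an integrin inhibitor, rose by 0.53 in WT and 0.60 in Il6-/- recipients. Skap1 rose by 0.44 and 0.85 and Fyb by 0.38 and 0.69 in WT and Il6-/- recipients in turn. In the same order, Flna fell by 1.54 and 0.44, Rasgrp2, a Rap1 exchange factor, by 1.07 and 0.79, and Rap1a by 0.29 and 0.48. Rap1b fell by 1.36 in Il6-/- recipients and had a log2 fold change of -0.28 (FDR 0.26) in WT recipients. The call of Flna in Il6-/- recipients was lost without Day 3 replicate 1 or 3 or Day 5 replicate 1 or 3 of that genotype (FDR 0.066 to 0.14) and in the 6 Il6-/- libraries alone (FDR 0.053).

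Of 25 genes that link integrins to actin and to kinases, 21 were tested. On Day 3, 1 was called, against 13.7% of all genes. This was Nedd9, a docking protein phosphorylated after beta 1 engagement. It measured 114.9, 113.1 and 123.0 CPM in WT and 82.0, 89.1 and 94.1 CPM in Il6-/- recipients and fell by 0.40 (SE 0.096, edgeR FDR 0.011), a call lost without WT replicate 3 (FDR 0.056) or Il6-/- replicate 1 (FDR 0.068) of Day 3. On Day 5, 1 was called, against 4.61% of all genes, the adaptor Crk, which fell by 0.45 (SE 0.12, FDR 0.038), and which lost the call in 11 of 18 alternatives, among them leaving out any 1 Day 5 library other than WT replicate 3 (FDR 0.058 to 0.16) or any 1 Day 3 library other than WT replicates 1 and 2 (FDR 0.052 to 0.057). With the replicate block, 4 of the 21 were called on Day 5. By day, 4 of the 21 were higher and 7 lower in WT recipients, and 5 were higher and 6 lower in Il6-/- recipients, against 56.7% and 60.5% of all genes called. Ptk2b, the focal adhesion kinase relative of lymphocytes, and Lims1, of the complex with integrin-linked kinase, rose by 0.56 and 0.46 in WT and by 0.79 and 0.80 in Il6-/- recipients on the log2 scale. Actn4, an actin crosslinker, and Parvg, a parvin of blood cells, fell by 1.16 and 0.50 in WT and by 0.98 and 0.34 in Il6-/- recipients.

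Of 27 ligands and membrane partners, 22 were tested, and on Day 3 in Il6-/- recipients 3 were higher and 3 lower, against 7.52% and 6.19% of all genes. Vcam1, the ligand of VLA-4, was low in all libraries at 2.30, 4.65 and 5.16 CPM in WT and 14.4, 14.4 and 9.20 CPM in Il6-/- recipients, a log2 fold change of 1.66 (SE 0.38, edgeR FDR 0.0094). Vcam1 is best known from endothelium, stroma and macrophages, and which cells carried these reads was not tested. Cd82, a tetraspanin, had a log2 fold change of 0.37 (SE 0.11, FDR 0.033), a call lost without any 1 of the 6 Day 3 libraries or Il6-/- replicate 2 of Day 5 (FDR 0.051 to 0.12). Cd53, another tetraspanin of leukocytes, measured 474.0, 610.1 and 596.9 CPM in WT and 222.2, 249.3 and 365.7 CPM in Il6-/- recipients and fell by 1.01 (SE 0.15, FDR 0.00045). Mfge8, a secreted ligand of Itgav pairs, fell by 0.55 (SE 0.12, FDR 0.0081).

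On Day 5 the 1 ligand or partner of 22 called by genotype, against 4.61% of all genes, was Icam2, an LFA-1 ligand, which fell by 0.49 (SE 0.11, edgeR FDR 0.018) from 48.5 to 55.0 CPM in WT to 31.8 to 41.9 CPM in Il6-/- recipients. Of its exon length, 24.5% is shared with Prr29. The call was lost without Day 5 WT replicate 1 or 2 or Il6-/- replicate 2 (FDR 0.056 to 0.11), and in the 6 Day 5 libraries alone (FDR 0.057). With the replicate block, 4 of the 22 genes were called. By day, 12 of the 22 were higher and 3 lower in WT recipients, against 29.5% and 27.1% of all genes, and 11 were higher and 2 lower in Il6-/- recipients, against 30.4% and 30.1%. The tetraspanin Tspan32 rose by 1.13 in WT and 1.24 in Il6-/- recipients on the log2 scale. Cd44, the hyaluronan receptor and a mark of activated T cells, rose by 0.92 and 0.86, and the tetraspanin Cd37 by 0.88 and 1.17, in WT and Il6-/- recipients in turn. Cd47, which associates with Itgav and Itgb3, fell by 0.39 in WT and 0.20 in Il6-/- recipients, Cd81 fell by 0.54 in WT recipients and had a log2 fold change of -0.32 (FDR 0.14) in Il6-/- recipients. Vcam1 fell by 2.23 in Il6-/- recipients and by 1.01 (FDR 0.046) in WT recipients, where the call was lost in 9 of 18 alternatives, among them leaving out WT replicate 2 or 3 of Day 3 or WT replicate 1 or 2 of Day 5 (FDR 0.083 to 0.16) and Il6-/- replicate 1 or 2 of Day 3 or 3 of Day 5 (FDR 0.052 to 0.056). Leaving out 1 of 3 libraries ended the call of Cd47 in Il6-/- recipients (Day 3 replicate 3, Day 5 replicates 1 and 3, FDR 0.074 to 0.15), as did the replicate block (FDR 0.07), and that of Cd81 in WT recipients (Day 3 replicates 1 and 3, Day 5 replicate 2, FDR 0.062 to 0.077).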

How the data were processed

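OTII cells from 4 groups of 3 libraries were analysed. The deposited files hold raw read counts per gene, made by the authors from single-end poly(A) RNA-seq with Trim Galore 0.4.4, STAR 2.5.2a on GRCm39 and HTSeq 0.6.1p1. They also deposited a table of log2 CPM values, not used here. Reads not assigned to a gene stayed out of library sizes: 11.7 to 17.3% were on no feature, 1.96 to 2.28% ambiguous and 23.7 to 28.2% not uniquely aligned, the last of which can count a read more than once.

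Groups came from the labels. Genes with low counts were filtered by group (filterByExpr), libraries were TMM-normalized, and 1 coefficient per group was fitted over 12 libraries with edgeR 4.0.16 (R 4.3.3, quasi-likelihood test, Benjamini-Hochberg FDR over 13570 genes). The median biological coefficient of variation was 0.129. A gene was called at an FDR under 0.05. The fit was tested on simulated counts. With 3 libraries against 3, an exact permutation test cannot give a two-sided p below 0.1. Alternatives were another scaling, no filter, DESeq2 1.42.0, limma-voom (limma 3.58.1), a replicate block, only the libraries compared, a 2-fold minimum and leaving out each library. Exon lengths, positions and overlaps are from GENCODE vM39 (GRCm39), which may differ from the authors' annotation.

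The members and lists were chosen with earlier results of these data known. All members were named. From each list, up to 2 called genes per direction and comparison were named, those of smallest p, and every other integrin subunit tested was counted. Replicate numbers come from the labels. For Day 5 the deviations of same-numbered WT and Il6-/- libraries from their group means correlated at 0.129 to 0.243 over genes, above the 0.1 taken as pairing in each pair. For Day 3 the values were 0.032 to 0.06, and between days -0.071 to 0.071, below that limit, so no pairing was assumed there. A limit of this kind cannot show that the Day 3 libraries were unpaired. Replicates were distinct libraries by their counts.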

Additional observations from a re-analysis of the deposited data

Results flagged for a closer look

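For 7 of the 82 genes tested among the 10 subunits and 4 gene lists, against 4.92% of all genes, the difference between Il6-/- and WT recipients itself differed between Day 3 and Day 5, by the interaction term of the edgeR fit at an FDR under 0.05. The values below are the Day 3 minus the Day 5 log2 fold change. It was -3.16 for Itga7 (FDR 0.0015) and -0.80 for Itgb7 (FDR 0.023). Among the activation genes it was -1.19 for Rasa3 (FDR 0.0053), -1.10 for Flna (FDR 0.017), -0.42 for Skap1 (FDR 0.03) and 1.08 for Rap1b (FDR 0.047). For Cd53, a membrane partner, it was -0.76 (FDR 0.046). Rap1b was the 1 gene with its lower value on Day 5. Leaving out 1 library ended the call of Itgb7 for 4 Day 3 libraries (given with the results), and that of Flna for Il6-/- replicate 2 of Day 3 (FDR 0.058). For Skap1 it ended without WT replicate 2 or 3 or Il6-/- replicate 1 of Day 3, or WT replicate 1 or 2 or Il6-/- replicate 3 of Day 5 (FDR 0.058 to 0.088). For Cd53 the call held only without WT replicate 1 or Il6-/- replicate 3 of Day 3 or Il6-/- replicate 2 of Day 5 (FDR 0.058 to 0.12 without any other library). For Rap1b it held only without WT replicate 1 of Day 3 or WT replicate 3 of Day 5 (FDR 0.053 to 0.12 without any other library), and limma-voom gave an FDR of 0.061. Itga7 and Rasa3 kept the call in all 17 alternatives.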

How the results depend on the processing

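Among the 10 subunits, 3 were called on Day 3, against 1 with a 2-fold minimum, 5 in a fit of the 6 Day 3 libraries alone and 2 to 3 when 1 library was left out. On Day 5, 0 were called, against 1 without the low-count filter, 1 by DESeq2, 2 with the replicate block and 0 to 1 when 1 library was left out (Itgb1 without WT replicate 1 of Day 3 or WT replicate 3 of Day 5, FDRs 0.021 and 0.02, and Itga6 without Il6-/- replicate 1 of Day 5, FDR 0.031). For the interaction 2 were called, against 1 with a 2-fold minimum and 1 to 2 when 1 library was left out. By day, the 4 calls in WT recipients became 1 with a 2-fold minimum and 3 to 5 when 1 library was left out, and the 6 calls in Il6-/- recipients became 2 and 6 to 8. The cause was not tested.

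Values near 0 changed sign. The interaction of Itga6 (0.00) was -0.02 with DESeq2 size factors, -0.02 by DESeq2 and 0.00 without the filter, and -0.19 to 0.26 when 1 library was left out. That of Itgb1 (0.02) was 0.00 with DESeq2 size factors and by DESeq2, and -0.09 to 0.19. Leaving out 1 library also gave -0.06 to 0.36 for Itga7, -0.45 to 0.05 for Itgae and -0.07 to 0.00 for Itgb2 on Day 5, -0.10 to 0.11 for Itgav and -0.20 to 0.12 for Itgb3 on Day 3, 0.00 to 0.24 for the interaction of Itgav, and -0.03 to 0.29 for Itgae by day in WT recipients.

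Over all genes, 626 were called on Day 5 and 668 for the interaction. With the replicate block these were 1592 and 1564, without the filter 1397 and 1300, by DESeq2 1127 and 1136, and 359 on Day 5 from the 6 libraries alone. Leaving out 1 library gave 225 to 1169 and 235 to 943. On Day 3 the block gave 2658 calls against 1861. Same-numbered Day 3 libraries correlated below the limit taken as pairing. Every Day 3 library still correlated best with its own number, which is a hint from the data only, so a Day 3 pairing was not settled. The pairing of Day 5 libraries changed the calls of Itgb1 and Itga4 given with the results. On Day 3 the block left the 3 calls among the subunits in place. Depth limits Itgae, Itga10, Itgb4 and Itgb8, each with 33 reads or fewer in every library. It also limits Itga7 on Day 3 in Il6-/- recipients, with 8 to 12 reads a library. On Day 3 it limits Itga9, with 6 to 28 reads a library, and Itga2b, with 1 to 8.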
